A study of Rattus norvegicus with 4 samples.

Results

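Lmx1a glutamate neurons of the rat ventral tegmental area (VTA) were taken here as nuclei with captured RNA of the transcription factor Lmx1a and of the glutamate transporter Slc17a6. In addition, no RNA was captured from a set of genes that mark dopamine, GABA or other neurons. A nucleus was a member when it held at least 2000 UMIs (unique molecular identifiers, each counted as 1 captured RNA molecule), at least 1 Lmx1a UMI and at least 2 Slc17a6 UMIs. Th, Slc6a3, Gad1, Gad2, Slc32a1, C1ql1, Sim1 and Foxb1 all had to be at 0. The rule was met by 276 of 21606 deposited barcodes, 50 and 40 in the libraries female 1 and female 2 and 80 and 106 in male 1 and male 2.

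The study profiled single nuclei from microdissected VTA of experimentally naive Sprague-Dawley rats aged 90 to 120 days. It comprised 4 libraries, 2 of females and 2 of males, each pooling tissue of 3 animals, so that 12 animals were sampled and a library is the replicate. No animal was treated and no allele was altered, so the libraries differed by sex. Per the labels' protocols, nuclei were sorted and then barcoded with 10x Genomics 3' chemistry, which counts RNA near the 3' end of transcripts.

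Lmx1a and its close relative Lmx1b are LIM-homeodomain transcription factors of the ventral midline of the developing midbrain, where they take part in specifying dopamine neurons. Lmx1a is also active further forward, in progenitors of subthalamic and neighbouring hypothalamic glutamate neurons, a lineage in which Barhl1 and Foxp2 are known. Slc17a6 encodes the transporter that loads glutamate into synaptic vesicles, and some VTA neurons carry it instead of, or together with, the dopamine genes Th and Slc6a3.

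Members were compared within each library with 2 other groups. The 370 Lmx1a-zero nuclei met the same rule but held no Lmx1a UMI (101, 60, 102 and 107 in female 1, female 2, male 1 and male 2). The 339 dopamine nuclei held at least 2000 UMIs, at least 2 Th UMIs and at least 2 Slc6a3 UMIs (77, 84, 78 and 100). Another group, 5230 oligodendrocyte nuclei, served as background for free RNA. These held at least 2000 UMIs, at least 3 UMIs of Mog plus Mag, and no Snap25 or Rbfox3 UMI. The libraries held 3628 to 6955 barcodes and 19714338 to 25824289 UMIs in all, and 4 to 9 barcode sequences recurred between any pair of libraries, none of them among the members. Median depth was 8468.5 UMIs in members, 7118 in Lmx1a-zero nuclei, 9130 in dopamine nuclei and 3006.5 in oligodendrocyte nuclei. Within libraries, members had the higher median in female 2, male 1 and male 2, and the lower in female 1 (8150 against 8249 UMIs).

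Members were selected on their UMIs of Lmx1a, Slc17a6 and the 8 genes at 0, and these values are given as description only. Across the libraries 1800 nuclei held at least 2000 UMIs and at least 2 Slc17a6 UMIs, and 771 of them also held an Lmx1a UMI. Of these 771, 309 held a C1ql1 UMI, which was the most frequent reason for exclusion. Th was present in 200, Gad2 in 124, Slc32a1 in 108, Slc6a3 in 42, Gad1 in 37, Sim1 in 13 and Foxb1 in 5, and a nucleus could hold several of them. A dopamine gene was therefore seen in 211 of the 771 and a GABA gene in 187. The members held 849 Lmx1a UMIs in all. Of the 276, 96 held exactly 1 Lmx1a UMI and 180 held 2 or more, and 99 held exactly the minimum of 2 Slc17a6 UMIs. With counts this low, a 0 can be a missed molecule, for Lmx1a in Lmx1a-zero nuclei and for the 8 genes in members. Just outside the rule, 126 nuclei would have been members but for holding 1 Slc17a6 UMI. The depth limit bore on few nuclei, since 274 of the 276 members held at least 3000 UMIs. An Lmx1a UMI was found in 0.0929% ± 0.186 of oligodendrocyte nuclei (SD, n = 4 libraries), all of them in male 2.

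The 2 markers of the label that the rule did not use were read next. The label was chosen with earlier results of these data known, so they are no independent check of it. Adamts2, a protease that trims the ends of fibrillar procollagens, stood at 136, 164, 220 and 237 CPM (counts scaled to 1000000 UMIs of the summed nuclei) in the members of female 1, female 2, male 1 and male 2. In the Lmx1a-zero nuclei of the same libraries it stood at 44.8, 57.4, 74.5 and 91.7 CPM. The 2 groups did not overlap, and the increase was 1.503 ± 0.128 (log2 fold change ± SE, adjusted p = 1.42e-06, edgeR quasi-likelihood test with library as a block). Fras1, an extracellular matrix protein of basement membranes, stood at 170, 130, 250 and 217 CPM against 164, 133, 132 and 141 CPM. It was higher in 3 of 4 libraries, and the difference of 0.46 ± 0.14 did not pass the threshold of 0.05 (adjusted p = 0.093). Its adjusted p fell to 0.037 without female 1 and to 0.019 without female 2, and rose to 0.54 without male 1. Against dopamine nuclei both markers were higher, by 2.16 ± 0.17 for Adamts2 (adjusted p = 1.78e-09) and 2.10 ± 0.18 for Fras1 (adjusted p = 6.87e-09). Adamts2 was thus higher in members than in both other groups, and Fras1 was called higher than in dopamine nuclei only.

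Neuronal identity was also examined with the marker lists. The summed level of 4 neuronal markers was 3028 to 3552 CPM in members, 3582 to 4505 CPM in Lmx1a-zero nuclei and 7092 to 8089 CPM in dopamine nuclei. In oligodendrocyte nuclei it was 45.4 to 83.5 CPM, but 2 of the 4 markers, Snap25 and Rbfox3, were at 0 there by definition. Astrocyte markers summed to 23.0 to 51.4 CPM in members, microglia markers to 0 to 14.4 CPM, vascular markers to 0 to 35.0 CPM and ependymal markers to 7.21 to 15.6 CPM. Oligodendrocyte markers summed to 384 to 1077 CPM in members and 686 to 1211 CPM in Lmx1a-zero nuclei, with all 6 markers detected in every library. They summed to 24896 to 40820 CPM in oligodendrocyte nuclei, a group chosen by Mog and Mag, which are among these markers. A doublet score marked 11 of the 276 members (4, 2, 2 and 3 by library) and 10 of the 370 Lmx1a-zero nuclei. No member had over 5% mitochondrial UMIs.

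Against the Lmx1a-zero nuclei, 384 of 8942 genes tested (4.29%) differed at adjusted p under 0.05, 191 higher in members (2.14%) and 193 lower (2.16%). The genes that were higher included listed transcription factors of the dopamine lineage, namely Lmx1b, Nr4a2, Ebf2 and Ebf3. Of these, Ebf2 was also higher in members than in the dopamine nuclei, as given below. Among the genes that were lower were Tcf7l2, the neuropeptide genes Pnoc, Penk and Cck, and the calcium buffers Pvalb and Calb1. All genes together had a median log2 fold change of -0.01. The count of calls rested in part on the male libraries, which hold most members: it was 208 without male 1 and 184 without male 2. It was 269 when both groups were limited to nuclei of 4000 to 12000 UMIs, and 415 with the doublet-marked nuclei removed.

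**Figure D1:**
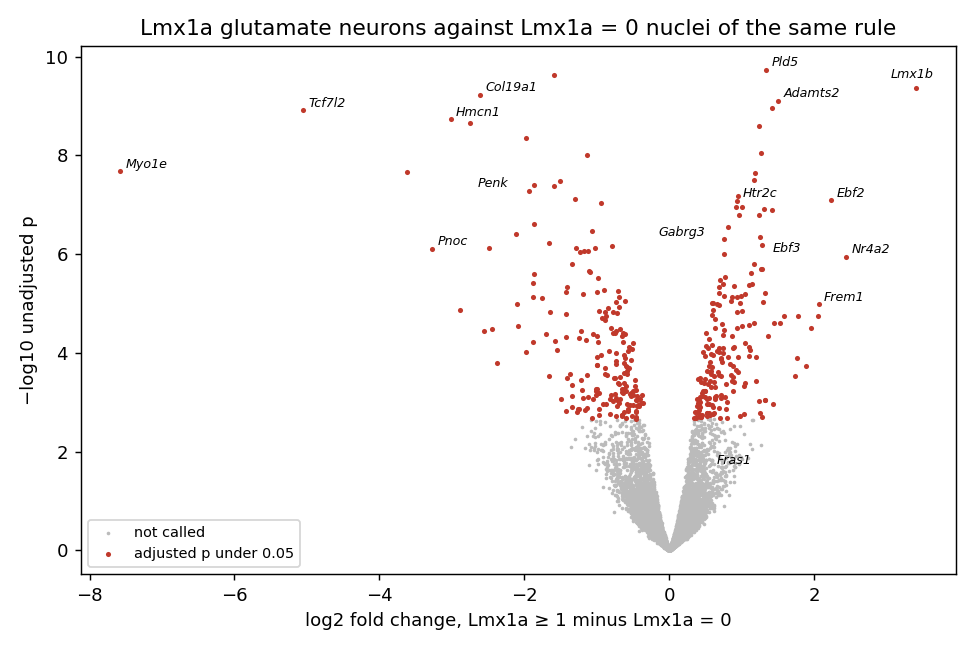
Each point is 1 of the 8942 genes tested between Lmx1a glutamate neurons and Lmx1a-zero nuclei, by log2 fold change (x, members minus Lmx1a-zero) and -log10 unadjusted p (y). Red points are the 384 genes with adjusted p under 0.05. Lmx1b lies farthest to the right, and the position of Myo1e, which had no UMI in members, depends on the prior count of the model.

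Of the 14 listed transcription factors of the dopamine lineage, 6 passed the filter on low counts, and Lmx1b, Nr4a2, Ebf1, Ebf2 and Ebf3 were called higher in members. Lmx1b (195 UMIs in members, 21 in Lmx1a-zero nuclei) and Nr4a2 (92 and 20) passed the filter through the members, so the number of calls in this list is not read as support. In members, Lmx1b stood at 84.9, 63.5, 69.7 and 90.6 CPM, and in Lmx1a-zero nuclei at 4.59, 1.98, 7.79 and 13.5 CPM (female 1, female 2, male 1 and male 2, the order kept below). The lowest member library lay above the highest Lmx1a-zero library, and the increase of 3.40 ± 0.28 (adjusted p = 1.31e-06) was the largest among called genes of at least 20 CPM. Nr4a2, an orphan nuclear receptor needed for the dopamine phenotype, stood at 44.7, 26.5, 42.1 and 32.6 CPM against 3.45, 5.93, 12.2 and 4.51 CPM. It was higher in 4 of 4 libraries, by 2.44 ± 0.34 (adjusted p = 0.000204). Both were called without each library in turn.

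The Ebf genes encode helix-loop-helix factors of neuronal differentiation and migration. Ebf2 stood at 326, 130, 168 and 216 CPM in members and at 20.7, 59.3, 50.1 and 52.6 CPM in Lmx1a-zero nuclei, an increase of 2.23 ± 0.26 (adjusted p = 3.01e-05). Ebf3 stood at 179, 185, 99.8 and 181 CPM against 47.1, 69.2, 64.5 and 76.6 CPM, an increase of 1.28 ± 0.17 (adjusted p = 0.000144). For both genes the groups did not overlap. Ebf1 rose less, by 0.69 ± 0.14 (adjusted p = 0.00501), from 335, 380, 244 and 237 CPM in Lmx1a-zero nuclei to 489, 511, 315 and 614 CPM. Its lowest member library lay below its highest Lmx1a-zero library, and its call was lost without male 2 (adjusted p = 0.0871). Of the 1182 Ebf1 UMIs of the members, 570 lay in 13 nuclei that clustered together (cluster 10 below), and the remaining members, pooled over libraries, stood at 259 CPM, beside a mean over libraries of 299 ± 70.0 CPM in Lmx1a-zero nuclei. Sox6, the sixth factor tested, was not called (-0.59 ± 0.38, adjusted p = 0.49). The other listed factors, among them Foxa1, Foxa2, En1, En2, Otx2, Pitx3 and Bnc2, held too few UMIs in both groups to be tested.

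Detection in single nuclei was compared after each nucleus had been reduced in expectation to 2000 UMIs, so that depth could not set the shares. On this scale 13.0% ± 2.68 (SD, n = 4 libraries) of members held a Lmx1b UMI, against 1.23% ± 0.926 of Lmx1a-zero nuclei, 17.1% ± 0.843 of dopamine nuclei and 0.0304% ± 0.0351 of oligodendrocyte nuclei. The difference between members and Lmx1a-zero nuclei was 11.8 percentage points, positive in 4 of 4 libraries, with p = 0.125 in the two-sided exact sign-flip test over libraries, the smallest p that 4 pairs allow. Without the reduction the shares were 41.9% and 3.77%. Nr4a2 followed the same order, at 6.25% ± 1.73 in members, 1.29% ± 0.561 in Lmx1a-zero nuclei, 10.96% ± 0.987 in dopamine nuclei and 0.522% ± 0.143 in oligodendrocyte nuclei. Foxa2, a forkhead factor that acts with Lmx1a and Lmx1b in floor-plate progenitors, was found in 1.65% ± 1.09 of members and 1.40% ± 0.603 of Lmx1a-zero nuclei, and in 4.94% ± 1.10 of dopamine nuclei. Pitx3, a factor of dopamine neuron survival, was found in 0.257% ± 0.212 of members and 9.84% ± 2.09 of dopamine nuclei. En1, an engrailed factor of the midbrain, was found in 0.262% ± 0.346 of members and 6.25% ± 0.466 of dopamine nuclei. Lmx1b and Nr4a2 were thus found in members at shares above the oligodendrocyte background, whereas Pitx3 and En1 stood near 0.

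**Figure D2:**
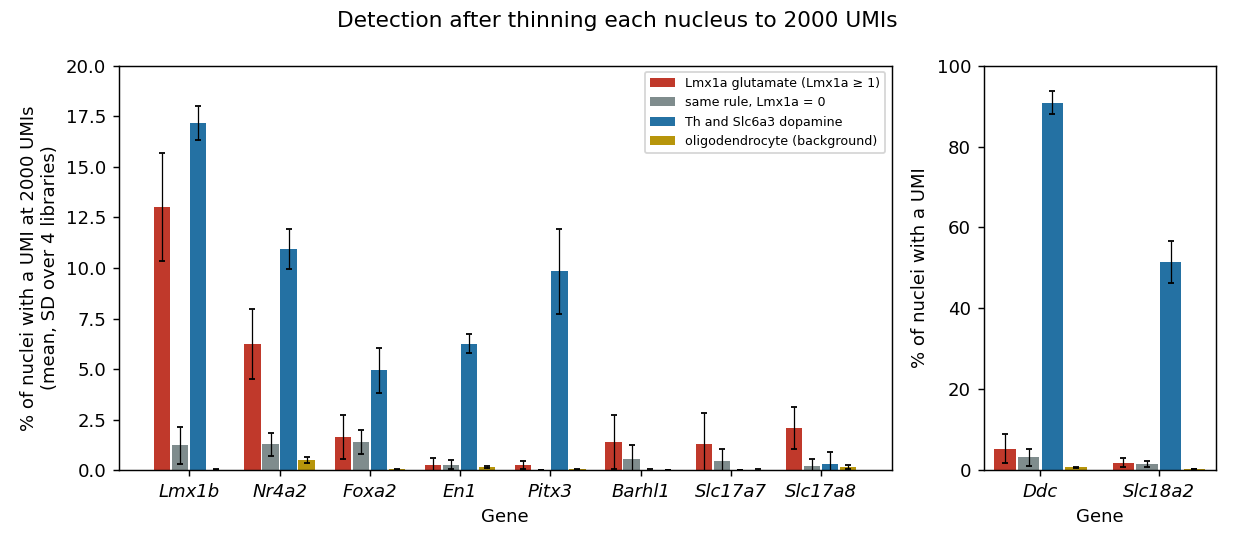
Bars give the mean share of nuclei (y, percent) with at least 1 UMI of each gene (x) after reduction to 2000 UMIs per nucleus, with SD over 4 libraries, and the panel for Ddc and Slc18a2 has its own axis. Lmx1b and Nr4a2 are high in members and dopamine nuclei and low in Lmx1a-zero nuclei, while Ddc (5.28% in members, 90.9% in dopamine nuclei) and Slc18a2 (1.89% and 51.5%) are high in dopamine nuclei alone of the groups drawn.

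Levels were also read by the number of Lmx1a UMIs in a nucleus. Summed per library, Lmx1b averaged 75.7 ± 30.0 CPM in members with 1 Lmx1a UMI, 68.2 ± 38.3 CPM in the 52 members with 2 and 80.1 ± 15.6 CPM in the 128 with 3 or more (mean ± SD, n = 4 libraries), against 6.97 ± 4.97 CPM at 0. Adamts2 averaged 157 ± 23.2 CPM with 1 Lmx1a UMI, 170 ± 138 CPM with 2 and 207 ± 54.3 CPM with 3 or more, against 67.1 ± 20.4 CPM at 0. With 2 Lmx1a UMIs it was at 0 in female 2, below the 57.4 CPM of that library's Lmx1a-zero nuclei. Members with a single Lmx1a molecule therefore already lay at levels of both genes that the Lmx1a-zero nuclei did not reach in any library. These values are descriptions, since Lmx1a is part of the rule.

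Dopamine synthesis, transport and subtype genes were sparse in both groups: 4 of 17 listed genes were tested, and Th and Slc6a3 were at 0 in both groups by the rule. Calb1, a calcium-binding protein of a VTA dopamine subset and of many other neurons, was the 1 called gene, beside 4.29% of all genes. It was lower in members (-1.34 ± 0.19, adjusted p = 0.000276). Ddc, the decarboxylase that makes dopamine and serotonin, stood at 13.4, 52.9, 42.1 and 12.1 CPM in members and at 13.8, 17.8, 43.4 and 18.03 CPM in Lmx1a-zero nuclei, a difference of 0.21 ± 0.30 (adjusted p = 0.81). Its levels overlapped throughout, and its sign turned with 1 library or with the Lmx1a minimum, as given with the alternatives.

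Of 17 listed transcription factors of the subthalamic and mammillary regions, 2 could be tested. Of these, 1 was higher, Foxp2, and none lower, beside 2.14% and 2.16% of all genes. Foxp2, a forkhead factor of several neuron classes, stood at 491, 905, 964 and 555 CPM in members and at 517, 180, 424 and 245 CPM in Lmx1a-zero nuclei. It was higher in 3 of 4 libraries, by 1.11 ± 0.22 (adjusted p = 0.00483), and this call was lost without male 2 (adjusted p = 0.0703) and without male 1. Barhl1 was found in 1.39% ± 1.33 of members and 0.575% ± 0.678 of Lmx1a-zero nuclei after reduction to 2000 UMIs, and its counts were too low for the test.

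**Figure D3:**
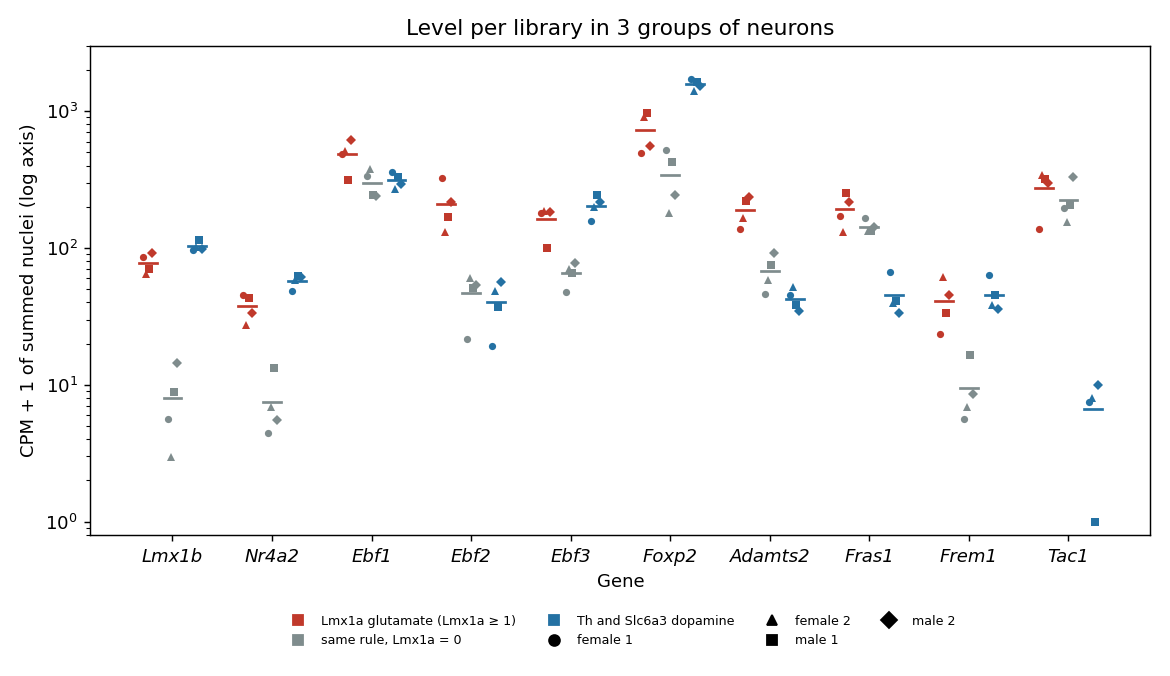
Level of 10 genes (x) in CPM plus 1 on a log axis (y) in the summed nuclei of each library (symbols) for members (red), Lmx1a-zero nuclei (grey) and dopamine nuclei (blue), with lines at the mean of 4 libraries. Lmx1b and Nr4a2 separate members from Lmx1a-zero nuclei, and Tac1 separates members from dopamine nuclei.

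Transcription factors of other midbrain and hindbrain lineages were mostly below the filter, with 2 of 23 tested. Tcf7l2, a Wnt pathway factor abundant in thalamus and pretectum, had 3 UMIs in all members and 172 in all Lmx1a-zero nuclei. It stood at 2.23, 2.65, 0 and 1.21 CPM against 116, 63.3, 33.4 and 13.5 CPM (adjusted p = 1.56e-06). With UMIs pooled over libraries the ratio was 48.5. Its exact 95% counting interval of 16.3 to 237 leaves out the spread between libraries. Other transmitter genes were also rare: none of 11 was tested. Slc17a8 and Slc17a7, which encode the other vesicular glutamate transporters, were found in 2.08% ± 1.04 and 1.29% ± 1.54 of members after reduction to 2000 UMIs, and in 0.164% and 0.0170% of oligodendrocyte nuclei.

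Besides Lmx1b, Nr4a2, Ebf2 and Adamts2, the 15 largest increases shared by all 4 libraries were Frem1, Rxfp1, Fgd5, Mgat4d, Rspo2, Syt17, Ntn1, Vwa5b1, Pard3b, AABR07011857.2 and Pdzrn3. Frem1, a secreted partner of Fras1 in the Fraser complex of basement membranes, stood at 22.3, 60.9, 32.5 and 44.7 CPM against 4.59, 5.93, 15.6 and 7.51 CPM, higher by 2.06 ± 0.34 (adjusted p = 0.001). The increase was 2.71 without male 1. Rxfp1, the relaxin receptor, stood at 255, 47.6, 63.7 and 68.9 CPM against 20.7, 3.96, 45.6 and 21.0 CPM. Its increase of 2.05 ± 0.35 (adjusted p = 0.00147) became 1.22 without female 1 and 2.98 without male 1, and remained called in both cases. DESeq2 did not call it (adjusted p = 0.0829). Of the Rxfp1 UMIs of the members, 169 lay in 18 nuclei that clustered together (cluster 8 below) and 73 in the other members. Pooled over libraries, those other members stood at 31.4 CPM, beside 3.96 to 45.6 CPM in the Lmx1a-zero libraries. Ntn1, the secreted guidance cue netrin 1, stood at 87.1, 39.7, 52.9 and 49.5 CPM against 18.4, 25.7, 11.1 and 28.6 CPM, higher by 1.53 ± 0.27 (adjusted p = 0.0019). Pard3b, a relative of the polarity protein Par-3, stood at 342, 288, 331 and 371 CPM against 75.8, 103, 201 and 126 CPM, higher by 1.42 ± 0.17 (adjusted p = 3.9e-05). For these 4 genes every member library lay above every Lmx1a-zero library. Rspo2, a secreted amplifier of Wnt signalling, rose by 1.76 ± 0.36 (adjusted p = 0.00623), a call lost without male 1 (adjusted p = 0.102) and without male 2.

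The 10 largest decreases were Myo1e, Tcf7l2, LOC102553190, Pnoc, Hmcn1, Pvalb, Myo5b, Col19a1, Abtb2 and Cdk15. Myo1e, a class I myosin, had no UMI in any member library and stood at 63.2, 17.8, 32.3 and 30.1 CPM in Lmx1a-zero nuclei, at least 31.8-fold lower in members against a floor of 3 counts over the group (adjusted p = 1.28e-05). Hmcn1, which encodes the matrix protein hemicentin 1, stood at 6.70, 13.2, 9.62 and 18.1 CPM against 106, 31.6, 128 and 108 CPM (-3.02 ± 0.27, adjusted p = 2.09e-06). Col19a1, a collagen of certain interneurons and other cells, stood at 31.3, 39.7, 19.2 and 25.4 CPM against 211, 83.1, 156 and 200 CPM (-2.61 ± 0.22, adjusted p = 1.33e-06). Myo5b, a myosin of endosome transport, stood at 26.8, 29.1, 27.6 and 15.7 CPM against 147, 51.4, 190 and 215 CPM (-2.75 ± 0.25, adjusted p = 2.17e-06). In all 4 genes the groups were apart, and female 2 held the lowest Lmx1a-zero level for Myo1e, Hmcn1, Col19a1 and Myo5b alike. Pvalb, the calcium buffer of many fast-spiking neurons, had 0 to 8.42 CPM in members and 13.8 to 38.9 CPM in Lmx1a-zero nuclei (-2.88 ± 0.49, adjusted p = 0.00124).

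Of 8 neuropeptide genes tested among 22 listed, 4 were lower in members and 1 higher, beside 2.16% and 2.14% of all genes. Their median was -0.87. Pnoc passed the filter through the Lmx1a-zero nuclei, where it is high, so neither the count nor the median is read as support. Penk, the enkephalin precursor, stood at 29.0, 31.8, 44.5 and 49.5 CPM against 171, 27.7, 167 and 219 CPM (-1.94 ± 0.22, adjusted p = 2.21e-05). Cck, the cholecystokinin precursor, stood at 53.6, 29.1, 22.8 and 51.9 CPM against 104, 27.7, 108 and 150 CPM (-1.42 ± 0.22, adjusted p = 0.000733). Both were lower in 3 of 4 libraries, the exception being female 2, whose Lmx1a-zero nuclei were themselves low. Pnoc, the nociceptin precursor, had 8 UMIs in all members and 96 in all Lmx1a-zero nuclei (-3.27 ± 0.44, adjusted p = 0.000154). Cartpt fell by 1.42 (-1.42 ± 0.27, adjusted p = 0.00303), a call lost without male 2 (adjusted p = 0.115) and without male 1. Adcyap1, the PACAP precursor, was higher by 0.64 ± 0.16 (adjusted p = 0.0243), lost without male 2 (adjusted p = 0.26) and without male 1. Tac1, the substance P precursor, differed by 0.27 ± 0.18 (adjusted p = 0.51), and Nts, the neurotensin precursor, by 0.33 ± 0.20 (adjusted p = 0.47).

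Among matrix genes, 1 of 10 tested from the list of Adamts proteases and fibrillar collagens was higher, Adamts2, and none was lower, beside 2.14% and 2.16% of all genes. Col11a1, a fibrillar collagen, differed by 0.62 ± 0.19 (adjusted p = 0.084). Of 4 tested genes of the Fraser complex, Frem1 was higher and Itga8 lower, beside the same shares. Frem1 passed the filter through the members, where it is high, so this count is not read as support. Itga8, an integrin subunit that binds nephronectin, differed by -1.34 ± 0.31 (adjusted p = 0.0161). It was called in 2 of the 4 fits that left out a library (adjusted p = 0.236 without male 1). Axon guidance genes moved in both directions, 5 of 35 tested being higher and 6 lower, beside 2.14% and 2.16% of all genes. Besides Ntn1, Sema5a (0.59 ± 0.11, adjusted p = 0.00407) and the ephrin receptor genes Epha5 (0.73 ± 0.13) and Epha3 (0.75 ± 0.14) were higher. The calls of Epha5 and Epha3 were lost without male 2 (adjusted p = 0.0528 and 0.061). Slit2 was higher by 0.61 ± 0.16 but was called in 1 of the 4 fits that left out a library. Epha4 stood at 51.4, 74.1, 99.8 and 72.5 CPM in members and at 180, 150, 167 and 164 CPM in Lmx1a-zero nuclei, with no overlap (-1.12 ± 0.15, adjusted p = 0.000167). Epha7 (-0.69 ± 0.11), Sema3e (-0.99 ± 0.19) and the netrin receptor gene Unc5b (-1.76 ± 0.28) were also lower and were called without each library in turn. Efna5 (-0.51 ± 0.14) and Nrp1 (-0.49 ± 0.13) were called in 1 of those 4 fits.

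Receptor and channel genes differed by smaller amounts. Of 21 receptor genes tested for neuromodulators and peptides, 4 were higher and 3 lower, beside 2.14% and 2.16% of all genes. Htr2c, a serotonin receptor gene, stood at 963, 535, 864 and 748 CPM in members and at 579, 293, 481 and 302 CPM in Lmx1a-zero nuclei, higher in 4 of 4 libraries by 0.94 ± 0.11 (adjusted p = 3.01e-05). Hcrtr2, an orexin receptor gene, stood at 192, 183, 136 and 126 CPM against 88.4, 61.3, 75.7 and 96.2 CPM, with no overlap (0.93 ± 0.16, adjusted p = 0.0013). Both held without each library in turn. Oprm1, the mu opioid receptor gene, was higher by 0.72 ± 0.18 (adjusted p = 0.0228), a call lost without male 1 (adjusted p = 0.126) and without female 1. Htr4 was higher by 0.74 ± 0.14 (adjusted p = 0.00278), lost without male 1 (adjusted p = 0.0533). The lower genes Grm8 (-0.45 ± 0.11) and Htr2a (-1.26 ± 0.33) lost their calls in at least 2 of the 4 fits without a library, with adjusted p up to 0.139 and 0.412.

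Beside the 2.14% of all genes that were higher and 2.16% that were lower, 3 of 24 ionotropic glutamate and GABA-A receptor subunit genes tested were higher and 1 lower. Gabrg3, a gamma subunit of the GABA-A receptor, stood at 1496, 1593, 1518 and 1974 CPM in members and at 955, 1114, 853 and 1011 CPM in Lmx1a-zero nuclei, with no overlap (0.75 ± 0.10, adjusted p = 0.000118). Grin3a and Gabrb2 were higher by 0.56 ± 0.12 and 0.39 ± 0.10, and Grik4 lower (-0.46 ± 0.13), with calls that were lost in at least 2 of the 4 fits without a library. Of 27 channel genes tested, 4 were higher and 1 lower, read against the same shares. Cacna1e, an R-type calcium channel gene, stood at 621, 606, 688 and 655 CPM against 440, 386, 483 and 406 CPM, higher in 4 of 4 libraries by 0.59 ± 0.10 (adjusted p = 0.000987). The T-type channel genes Cacna1i (0.68 ± 0.18) and Cacna1g (0.49 ± 0.12) and Kcnh8 (0.55 ± 0.14) lost their calls in at least 2 of those fits. Of 6 cerebellin and delta receptor genes tested, 1 was higher and none lower, again beside 2.14% and 2.16%, and Cbln1, a cerebellin gene, was not called (adjusted p = 0.129).

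Among markers of other cells, none of 5 oligodendrocyte markers tested differed, beside 4.29% of all genes. Vcan, a proteoglycan listed as a precursor marker, was lower in members (-1.64 ± 0.28, adjusted p = 0.0013). The summed precursor markers were 8.93 to 15.9 CPM in members and 28.9 to 53.4 CPM in Lmx1a-zero nuclei. Pdgfra and Cspg4 were each at 0 in some member libraries, and Cspg4 also in the Lmx1a-zero nuclei of female 2, male 1 and male 2. Vcan was the only listed precursor marker with enough UMIs to be tested. Whether the difference in precursor markers bears on the other genes was not tested. The synaptic gene Snap25 was lower by a small amount (-0.37 ± 0.09, adjusted p = 0.0231), called in 1 of those 4 fits (adjusted p = 0.172 without male 2).

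Between members and dopamine nuclei, 1783 of 9241 genes tested (19.3%) differed, 891 higher in members (9.64%) and 892 lower (9.65%). Members held more RNA of Tac1, Htr2c and Penk, while dopamine nuclei held more of Ddc, Slc18a2, Aldh1a1, Bnc2 and nicotinic receptor genes. Both comparisons use the same member nuclei. The count of calls was 1163 when both groups were limited to nuclei of 4000 to 12000 UMIs.

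Dopamine synthesis, transport and subtype genes were low in members, among them genes other than the Th and Slc6a3 of the rule. Of the 17 listed, 14 passed the filter here and 4 did so against Lmx1a-zero nuclei, so most entered through the dopamine nuclei, where they are high, and their number of calls is not read as support. Ddc stood at 13.4 to 52.9 CPM in members and at 1625, 1463, 1576 and 1344 CPM in dopamine nuclei (-5.76 ± 0.19, adjusted p = 9.62e-16). Slc18a2, the vesicular monoamine transporter, stood at 3.61 to 13.3 CPM against 449, 324, 432 and 356 CPM (-5.50 ± 0.21, adjusted p = 9.09e-15). Aldh1a1, an aldehyde dehydrogenase of a dopamine subset, stood at 0 to 6.04 CPM against 251 to 480 CPM (-6.63 ± 0.27), which became -5.83 without male 1 and -7.26 without male 2. Tmem207, Chrna6 and Ntf3 had no UMI in members and 487, 414 and 336 UMIs in dopamine nuclei, at least 116-fold, 98.2-fold and 79.7-fold lower in members. Drd2, the D2 autoreceptor gene, stood at 10.6 to 22.3 CPM against 274 to 366 CPM (-4.23 ± 0.16). In expectation at 2000 UMIs, a Ddc UMI was found in 5.28% ± 3.56 of members, 3.25% ± 2.10 of Lmx1a-zero nuclei and 0.683% ± 0.105 of oligodendrocyte nuclei.

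Transcription factors of the dopamine lineage are given by their levels, because Bnc2, Pitx3, En1, En2 and Foxa2 passed the filter through the dopamine nuclei where they are high, and no count over the list is read. Bnc2 had 3 UMIs in all members and 1917 in dopamine nuclei, a ratio of 455 after scaling to the total UMIs of each group. Its exact 95% counting interval of 155 to 2207 leaves out the spread between libraries. Pitx3 stood at 0 to 2.65 CPM against 47.2 to 67.4 CPM, En1 at 0 to 4.47 CPM against 27.2 to 36.0 CPM, and Foxa2 at 2.42 to 11.2 CPM against 17.98 to 24.6 CPM. Lmx1b, in contrast, stood at 63.5 to 90.6 CPM against 95.8, 101, 113 and 96.7 CPM. It was lower in members in 4 of 4 libraries by a small amount (-0.45 ± 0.15, adjusted p = 0.0367), a call lost without male 1 (adjusted p = 0.279) and without female 2. Nr4a2 stood at 26.5 to 44.7 CPM against 47.9, 56.9, 61.9 and 60.7 CPM (-0.70 ± 0.20, adjusted p = 0.0126), lost without male 2 (adjusted p = 0.116). Ebf2 was higher in members by 2.30 ± 0.23 (adjusted p = 6.09e-08) and Ebf1 by 0.53 ± 0.14 (adjusted p = 0.00592), the latter lost without male 2 (adjusted p = 0.185). Ebf3 was not called (-0.44 ± 0.16, adjusted p = 0.066). Lmx1b and Nr4a2 thus differed from dopamine nuclei by under 1 log2 unit, and Bnc2, Pitx3 and En1 by over 4.

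Among the largest increases over dopamine nuclei were Tac1, Arpp21, Htr2c, Ntng2, Rnf207, Penk and Synpr. Tac1 stood at 136, 339, 319 and 296 CPM in members and at 6.47, 6.97, 0 and 8.99 CPM in dopamine nuclei (5.57 ± 0.27, adjusted p = 3.74e-13). Htr2c stood at 535 to 963 CPM against 3.88, 11.6, 10.3 and 87.7 CPM, and its increase of 4.77 ± 0.33 became 6.37 without male 2. Penk stood at 29.0 to 49.5 CPM against 0, 4.65, 0 and 1.12 CPM, and its increase of 4.60 ± 0.49 became 6.23 without female 2. No member library overlapped a dopamine library for these 3 genes. Foxp2 went the other way, at 491 to 964 CPM in members and 1412 to 1724 CPM in dopamine nuclei (-1.20 ± 0.13, adjusted p = 3.15e-07).

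Of 10 neuropeptide genes tested, 4 were higher in members and 4 lower, beside 9.64% and 9.65% of all genes. Penk passed the filter through the members, and Grp (3 UMIs in members, 91 in dopamine nuclei) through the dopamine nuclei. The count is therefore not read as support. Cartpt (3.23 ± 0.29) and Adcyap1 (1.09 ± 0.18) rose with Tac1 and Penk. Cck stood at 22.8 to 53.6 CPM in members and at 766 to 1013 CPM in dopamine nuclei (-4.62 ± 0.14, adjusted p = 3.03e-16), and Nppc, Grp and Crhbp were also lower. Of 24 receptor genes tested, 11 were higher and 10 lower, beside the same shares. Chrna5 passed the filter through the dopamine nuclei, so this count is not read as support either. The opioid receptor genes Oprm1 (3.16 ± 0.26, adjusted p = 1.94e-09) and Oprd1 (3.38 ± 0.50, adjusted p = 2.01e-05) were higher in members, and Oprk1 was lower (-1.89 ± 0.36, adjusted p = 0.000403). Chrna5, a nicotinic receptor subunit gene, stood at 0 to 2.65 CPM in members and 103 to 177 CPM in dopamine nuclei (-6.28 ± 0.31). Cerebellin genes Cbln1 (2.20 ± 0.32) and Cbln2 (3.93 ± 0.41) and the delta receptor gene Grid1 (0.58 ± 0.10) were higher, in a list of which 4 of 5 tested were higher, beside the 9.64% of all genes. Cbln2 may have passed the filter through the members alone, so the count of this list is not read as support.

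Of 24 ionotropic receptor subunit genes, 15 were higher in members and 5 lower, beside 9.64% and 9.65% of all genes, with a median of 0.56 against 0.00 for all genes. Gabra5 (1.89 ± 0.21), Gria4 (0.88 ± 0.08) and Gabrg3 (0.87 ± 0.10) were among the higher, and Gabra4 (-1.60 ± 0.12) among the lower. Of 26 channel genes, 10 were higher and 11 lower, and of 35 guidance genes 15 were higher and 9 lower, beside the same shares. The guidance gene Ntng2 was higher by 4.69 and may have passed the filter through the members alone. The guidance count is therefore not read as support. Kcnj6, a G protein-gated potassium channel gene (-1.46 ± 0.18), and Kcnn3, an SK channel gene (-2.23 ± 0.14), were lower. The guidance gene Ntn1 fell by 3.80 (-3.80 ± 0.14, adjusted p = 2.92e-15) from 686 to 806 CPM in dopamine nuclei. Ntn1 in members therefore lay above Lmx1a-zero nuclei and far below dopamine nuclei. Of 11 genes tested from the Adamts and collagen list, Adamts2, Adamts20 and Col11a1 were higher and Adamts6, Adamts9, Adamts19 and Col24a1 lower. Of the 5 tested Fraser complex genes, Fras1 and Grip1 were higher and Npnt, the integrin ligand nephronectin, was lower (-4.02 ± 0.44). Both lists stand beside the same shares of all genes. Npnt may have passed the filter through the dopamine nuclei alone, so the count of Fraser complex genes is not read as support.

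The members were not uniform. Within them 119 of 276 held a Lmx1b UMI, 151 a Foxp2 UMI, 94 a Tac1 UMI, 89 an Ebf2 UMI, 62 a Nr4a2 UMI, 166 an Adamts2 UMI and 161 a Fras1 UMI. Nr4a2 was present in 22.7% of the members with a Lmx1b UMI and in 22.3% of those without, and Ebf2 in 33.6% and 31.2%. The nuclei with Lmx1b were deeper, with a median of 9229 UMIs against 7579. Ebf2 was present in 25.8% of members with a Foxp2 UMI and 40.0% of those without, although members with Foxp2 were the deeper ones (9141 against 7742 UMIs). These shares are descriptions over nuclei of 4 libraries and were not tested.

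Clustering of the members alone gave 11 clusters of 10 to 46 nuclei, described here by their leading genes and without a test, since these genes formed them. Cluster 1 (46 nuclei) was led by Col8a1, Nr2f2 and Nts, with Nts at 160 CPM against 35.2 CPM in the other members. Cluster 2 (44 nuclei) was led by genes including Gpc3, Cdh23, Trhde and Cacna2d3, and held Lmx1b at 124 CPM and Ebf1 at 9.73 CPM. Cluster 3 (33 nuclei) was led by Chst9, Cartpt, Sv2c and Etv1, with Cartpt at 255 CPM against 27.2 CPM, and held Ntn1 at 199 CPM. Cluster 4 (29 nuclei) carried the stress peptide gene Crh at 72.1 CPM against 5.89 CPM, with its binding protein gene Crhbp, Rspo3 and Pde11a, and hardly any Tac1 (7.21 CPM). Cluster 5 (27 nuclei) was led by Spp1, which came from 1 nucleus, and by Rorb at 294 CPM against 35.5 CPM.

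Cluster 6 (21 nuclei) stood out by Sox6 at 278 CPM against 8.46 CPM and by Nfia, Nppc and Prox1. Cluster 7 (21 nuclei) was led by Abcc9, Sema3d, Sema3c and Nfib, held Tac1 at 945 CPM and the lowest Lmx1b among the clusters, 16.1 CPM. All 6 of its nuclei with a Slc17a7 UMI, 28.6% of the cluster, were the only members with one. Cluster 8 (18 nuclei) carried Rxfp1 in every nucleus at 1044 CPM against 31.4 CPM, with Glb1l2, Prkca, Ebf2 at 1007 CPM, Hcrtr2 at 649 CPM and the highest Lmx1b, 192 CPM. Of its 18 nuclei, 8 came from female 1, the library in which Rxfp1 reached 255 CPM. Cluster 9 (14 nuclei) held Htr2c at 2762 CPM and Foxp2 at 1923 CPM with no Ebf1 UMI, and 10 of its nuclei came from male 1 and none from female 2. Cluster 10 (13 nuclei) was led by Ebf1 at 4652 CPM against 259 CPM and held Tac1 at 1306 CPM, Nr4a2 at 122 CPM and no Htr2c UMI. Over the clusters Foxp2 ranged from 18.5 to 1923 CPM and Adamts2 from 98.2 to 376 CPM.

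Cluster 11 (10 nuclei) was led by oligodendrocyte genes, among them Mog at 782 CPM against 10.4 CPM, Mobp and Hapln2, and held Mbp at 1835 CPM. All 10 of its nuclei were marked by the doublet score, and it was left unnamed. They came from every library, 4, 2, 1 and 3 in female 1, female 2, male 1 and male 2. At a lower resolution, clusters 1 and 5 largely joined, as did clusters 6 and 7, and cluster 11 stayed apart with the same 10 nuclei.

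**Figure D4:**
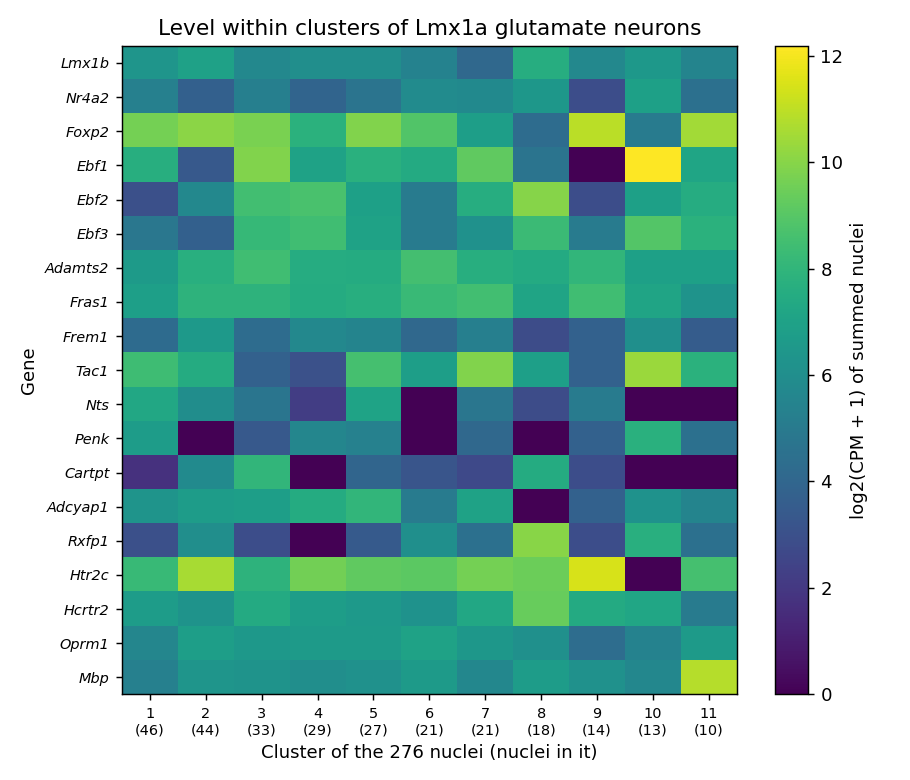
Colour gives log2(CPM + 1) of 19 genes (y) in the summed nuclei of each of the 11 clusters of members (x, number of nuclei in brackets). Ebf1 peaks in cluster 10 at 4652 CPM, Rxfp1 in cluster 8 at 1044 CPM and Mbp in cluster 11 at 1835 CPM, while Lmx1b is found in all 11.

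The share of members was compared between the sexes. Members made up 1.43%, 1.00%, 2.58% and 2.25% of nuclei with at least 2000 UMIs in female 1, female 2, male 1 and male 2 (Wilson 95% intervals 1.09 to 1.89, 0.737 to 1.36, 2.07 to 3.19 and 1.86 to 2.71). Females averaged 1.22% ± 0.306 and males 2.41% ± 0.232 (SD, n = 2 each). Both male libraries lay above both female libraries, and the two-sided exact permutation test gave p = 0.333, the smallest that 2 against 2 allows. Of members and Lmx1a-zero nuclei together, members were 33.1% and 40.0% in females and 44.0% and 49.8% in males, a difference of -10.3 percentage points (exact permutation p = 0.333). The dissected tissue of each sex came from separate pools, so dissection and sex cannot be told apart in these shares. The intervals cover counting error only.

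**Figure D5:**
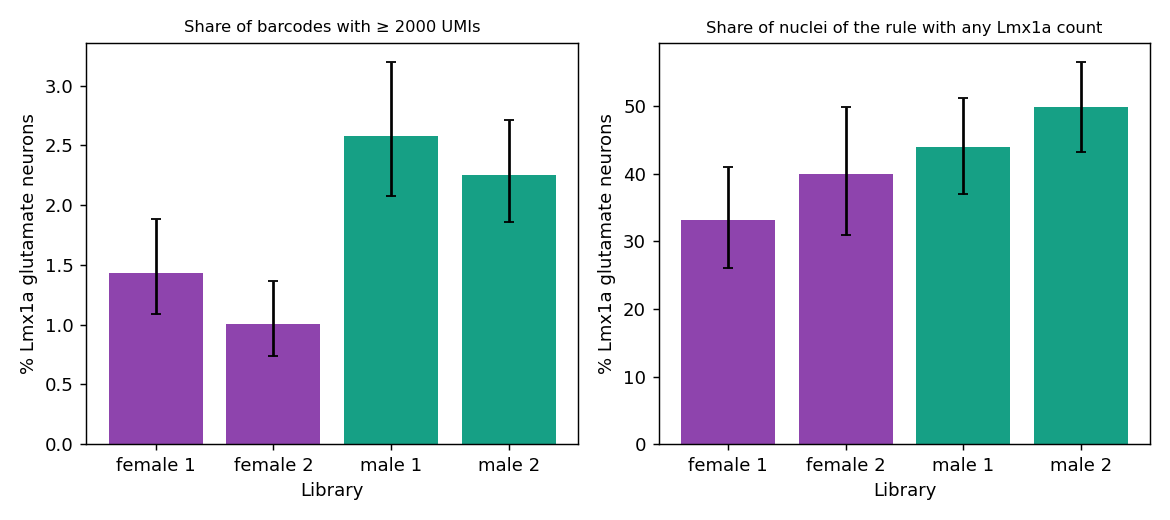
Bars give the share of Lmx1a glutamate neurons (y, percent) in each library (x), of all nuclei with at least 2000 UMIs (left) and of members plus Lmx1a-zero nuclei (right), with Wilson 95% intervals. The female libraries reach 1.00% and 1.43% on the left and the male libraries 2.25% and 2.58%.

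Few genes differed between the sexes within the members. Of 8606 genes tested, 12 (0.139%) were called, 6 higher in females (0.0697%) and 6 higher in males (0.0697%), and 397 had an unadjusted p under 0.05. The Y-linked genes Kdm5d and Eif2s3y, which check the labels, had 0 to 2.65 CPM in the female libraries and 74.9 to 133 CPM in the male ones. AC241873.1 and Ddx3 behaved alike, with at most 6.70 CPM in females and at least 91.8 CPM in males. AABR07039356.2 stood at 55.8 and 92.6 CPM in females and was at 0 in males. Nts, the neurotensin gene, stood at 17.9 and 13.2 CPM in females and at 62.5 and 93.0 CPM in males (-2.29 ± 0.40, adjusted p = 0.0365), a call not made by DESeq2 (adjusted p = 0.125). In the Lmx1a-zero nuclei Nts stood at 23.0 and 5.93 CPM in females and at 53.4 and 63.1 CPM in males.

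Mbp, a myelin gene of oligodendrocytes, was higher in female members. It stood at 237 and 201 CPM in females and at 99.8 and 78.5 CPM in males (1.31 ± 0.21, adjusted p = 0.0169). Cluster 11 made up 4 of 50 and 2 of 40 members in females and 1 of 80 and 3 of 106 in males. With the doublet-marked nuclei removed, the difference became 0.49 for Mbp and was not called, and 8 of the 12 genes remained called. LOC108348175, another of the 12, fell from 1.42 to 0.63 in the same step.

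Whether the contrast between members and Lmx1a-zero nuclei differed between the sexes was tested by an interaction term. Of 9803 genes, 3 were called (0.0306%), Pde11a, Synpr and Rxfp1, all with a larger member excess in females. Pde11a, a phosphodiesterase, stood at 123, 63.5, 74.5 and 87.0 CPM in members and at 14.9, 17.8, 69.0 and 82.7 CPM in Lmx1a-zero nuclei. The members overlapped between the sexes and the Lmx1a-zero nuclei did not. Synpr, a synaptic vesicle protein, stood at 348, 286, 210 and 223 CPM against 84.98, 75.2, 131 and 171 CPM, so that it was higher in females in members and lower in females in Lmx1a-zero nuclei. None of the 3 was called in every fit that left out a library.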

How the data were processed

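Single-nucleus RNA was measured in 4 libraries. Per the file headers, each deposited matrix gives, by gene and barcode, whole-number UMI counts without normalization, and the software version there reads 3.0.2. Cell Ranger and the rat build rn6 are named in the submitters' processing notes. Library totals were 19714338 to 25824289 UMIs. Counts of nuclei were summed per library and group, and the 10 genes that define the groups were left out of tests. Groups were compared with edgeR 4.0.16 (R 4.3.3): TMM scaling, its default filter on low counts, the quasi-likelihood test with library as a block (not for sex) and Benjamini-Hochberg adjustment over all genes tested, with calls at adjusted p under 0.05. The standard error is the log2 fold change divided by the root of F. CPM is the count per 1000000 UMIs of a summed group. Labels name separate libraries of pooled animals. With library as a block, p-values measure how far the difference within a library varied between pools. In the sex test they measure the spread of levels between pools.

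Shares of nuclei with a UMI were computed in expectation after hypergeometric reduction to 2000 UMIs per nucleus. Clusters came from Leiden clustering (leidenalg 0.10.2, scanpy 1.11.5, resolution 1, 1000 variable genes, 15 components, 15 neighbours). Doublets were scored with Scrublet in scanpy at an expected 0.8% per 1000 barcodes, and the 980 highest scores were removed in 1 alternative only. Counts were simulated with 200 changed genes of at least 200 UMIs. The dispersion was set to 0.02 and not estimated from these data, and simulated libraries differed in expected level by depth only. Of genes changed by 1 log2 unit, the test recovered 92.6% against Lmx1a-zero nuclei, 91.5% against dopamine nuclei, 66.7% between sexes and 20.4% for the interaction. These rates are not the power of the tests on the real libraries, nor for genes with fewer UMIs, such as Nr4a2 and Pnoc.

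The members, gene lists and tests were chosen with earlier results of these data known. Genes named are members of the lists, the 15 largest increases and 10 largest decreases against Lmx1a-zero nuclei and the 8 largest of each direction against dopamine nuclei (called, at least 20 CPM, same direction in 4 libraries), and up to 5 per sex test. Named outside this rule, after their values were seen, were the remaining sex calls and the leading genes of clusters. Alternatives were leaving out each library, DESeq2 1.42.0, DESeq2 size factors, no filter, doublets removed, the block, and other limits on Lmx1a and depth. No genome sequence was used here. Some genes that the rule names are not reported here.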

Additional observations from a re-analysis of the deposited data

Results flagged for a closer look

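In 3 of 69 genes checked, 1 member library lay far from the other 3, and chance alone flags about 1 in 20 such groups. Rxfp1 reached 254.6 CPM in female 1, against 47.6 to 68.9 CPM in the others. Ebf3 stood at 99.8 CPM in male 1, against 179 to 185 CPM. Calb1 stood at 5.29 CPM in female 2, against 31.3 to 35.0 CPM, and female 2 was also the lowest library for Calb1 in Lmx1a-zero nuclei, at 7.91 CPM.

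For 3 genes the excess of members over Lmx1a-zero nuclei differed between the sexes in the interaction test of edgeR, each larger in females. The difference of log2 fold changes was 2.51 ± 0.40 for Pde11a (adjusted p = 0.0125), 1.47 ± 0.25 for Synpr (adjusted p = 0.0147) and 2.65 ± 0.46 for Rxfp1 (adjusted p = 0.0150). Without female 1 it was 1.73 for Pde11a (adjusted p = 0.192), and without male 2 Synpr had an adjusted p of 0.107. Rxfp1 had an adjusted p of 0.228 without female 1 and 0.635 without male 1. DESeq2 called none of the 3.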

How the results depend on the processing

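Against Lmx1a-zero nuclei the 384 calls became 184 to 457 when 1 library was left out (208 without male 1 and 184 without male 2), 141 with DESeq2, 597 with no filter on low counts and 195 with no replicate block. Against dopamine nuclei the 1783 calls became 1290 to 1626 without 1 library, 966 with DESeq2 and 1163 at 4000 to 12000 UMIs. Between sexes the 12 calls became 16 to 53 without 1 library (53 without female 1, 32 without female 2 and 39 without male 2), 33 with no filter and 40 with the replicate number as a block. Those numbers are taken as names only: deviations of same-numbered libraries correlated at r = 0.14 across 7598 genes, over 2 pairs. The 3 interaction calls became 8 to 66 without 1 library (66 without female 1, 31 without female 2, 13 without male 1 and 8 without male 2), 29 with no filter and 0 with DESeq2, which gave 49 genes at an unadjusted p under 0.05. The cause of these changes was not tested. The difference in Lmx1b shares was 11.8 percentage points at 2000 UMIs, 38.1 without reduction and 6.19 at 1000 UMIs. Ddc, at 0.21 against Lmx1a-zero nuclei, was -0.16 to 0.43 without 1 library (-0.16 without female 2) and -0.25 with at least 2 Lmx1a UMIs, never called.

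Of 63 called genes named against Lmx1a-zero nuclei, 35 were called without each library in turn and 32 under every alternative run, and of 141 against dopamine nuclei 120 and 115. The share of members among members plus Lmx1a-zero nuclei was higher in males in every alternative run. With 4 libraries, a sign-flip test over libraries cannot pass 0.05.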
